A study of Mus musculus with 3 samples.

Results

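Methylated DNA in mouse sperm was compared between the low dose doxorubicin library and the vehicle control library, which are 2 of the 3 libraries of a series on testicular toxicity of this drug. Both were measured in 143198 windows of 500 bp on mm10, each counted once, and all of these windows entered the comparison. The mice were C57BL/6 and 14 weeks old. The low dose group received 0.02 mg/kg doxorubicin and the control group saline, injected intraperitoneally on 2 days of each week for 5 weeks between 8 and 13 weeks of age, and tissue was taken 4 days after the last injection. Sperm was purified from the cauda epididymis, its DNA was broken to about 300 bp, and the fragments captured with MBD2, a protein that binds methylated CpGs, were sequenced on a MiSeq instrument (MBD-seq). The number of animals behind a library was not stated in the labels. The remaining library, from mice given 0.2 mg/kg of the same drug, served as a filter, and its values are given beside some results. It was compared with the same control library, so the changes at the 2 doses are not independent. Since each group had 1 library, nothing could be tested, and all differences are between these libraries and lack a replicate check. Values of the control library are given as those of vehicle sperm.

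Doxorubicin intercalates into DNA, traps topoisomerase II on broken strands and raises reactive oxygen species, and dividing germ cells of the testis are known targets of it. Mature sperm DNA is methylated at most CpG sites outside CpG islands. At imprinted loci it carries the paternal pattern, with methylation at the H19, Meg3, Rasgrf1 and Zdbf2 control regions and little at those methylated in oocytes. In MBD-seq the read density of a window follows the number of its methylated CpGs, so CpG-poor windows hold few reads even when fully methylated. The scale RPM is the read density of a window scaled to library size. The scale RMS is a methylation score per window that the headers do not spell out. The change of a window was log2((low dose RMS + c)/(control RMS + c)) with c = 0.766, and a window was called higher or lower when this reached 1 in size, which is 2-fold on that scale. The pseudocount c understates the change of low windows. No input library was analysed here, so a change in copy number of a region and a change in its methylation cannot be told apart. How many reads stood behind a window was not stated. The RPM values were whole multiples of 0.0214 in the control library and of 0.0197 in the low dose library. Whether 1 such step is 1 read is not known.

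Promoters of 6 genes are shown because windows over them had large changes among promoter windows or lay in stretches of higher windows. They are RefSeq sequences on GRCm38.p6, 250 bases before to 50 after the annotated start, 5′ to 3′, with each CG in capitals, the dinucleotide that MBD2 recognises when methylated. They were taken from promoters that a listed window covered by 150 bp or more, leaving out predicted genes, RIKEN clones, 1 chromosome whose sequence is not printed here and windows whose larger RMS was under 1.68. Among those left, the first 3 had the lowest changes and Ahnak2 the highest. The predicted genes Gm52481 and Gm33272 were chosen after their values were seen, since they lie in stretches of higher windows on the distal Y chromosome. Clnk (chr5:38876644-38876943, minus strand) encodes an adaptor of immune receptor signalling, Mrln (chr10:70204414-70204713, plus strand) the calcium pump inhibitor myoregulin, and Ttll3 (chr6:113389010-113389309, plus strand) a tubulin glycylase of cilia and flagella. Ahnak2 (chr12:112795693-112795992, minus strand) encodes a giant scaffold protein. The promoters of Gm52481 and Gm33272 lie at chrY:90742479-90742778 and chrY:90793437-90793736, both on the plus strand.
Clnk: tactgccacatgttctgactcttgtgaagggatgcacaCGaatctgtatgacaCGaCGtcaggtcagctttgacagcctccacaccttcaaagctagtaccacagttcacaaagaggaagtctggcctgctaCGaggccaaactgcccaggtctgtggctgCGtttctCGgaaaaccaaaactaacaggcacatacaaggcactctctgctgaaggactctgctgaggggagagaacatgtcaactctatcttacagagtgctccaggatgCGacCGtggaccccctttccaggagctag
Mrln: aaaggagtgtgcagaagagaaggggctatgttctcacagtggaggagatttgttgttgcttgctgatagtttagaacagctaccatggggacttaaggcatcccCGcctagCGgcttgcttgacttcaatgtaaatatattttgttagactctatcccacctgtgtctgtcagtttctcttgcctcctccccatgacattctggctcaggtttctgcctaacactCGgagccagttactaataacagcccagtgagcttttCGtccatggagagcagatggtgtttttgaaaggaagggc
Ttll3: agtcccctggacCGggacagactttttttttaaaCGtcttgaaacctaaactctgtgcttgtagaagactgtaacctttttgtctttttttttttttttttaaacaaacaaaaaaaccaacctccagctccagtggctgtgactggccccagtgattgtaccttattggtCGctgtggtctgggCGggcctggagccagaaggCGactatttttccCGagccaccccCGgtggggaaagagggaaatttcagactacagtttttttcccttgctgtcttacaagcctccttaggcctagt
Ahnak2: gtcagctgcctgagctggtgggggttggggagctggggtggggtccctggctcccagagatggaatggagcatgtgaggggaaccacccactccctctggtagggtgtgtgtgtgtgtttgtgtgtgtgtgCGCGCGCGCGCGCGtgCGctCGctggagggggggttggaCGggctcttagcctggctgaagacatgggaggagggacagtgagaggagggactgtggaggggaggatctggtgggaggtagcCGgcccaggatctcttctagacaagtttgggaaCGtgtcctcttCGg
Gm52481: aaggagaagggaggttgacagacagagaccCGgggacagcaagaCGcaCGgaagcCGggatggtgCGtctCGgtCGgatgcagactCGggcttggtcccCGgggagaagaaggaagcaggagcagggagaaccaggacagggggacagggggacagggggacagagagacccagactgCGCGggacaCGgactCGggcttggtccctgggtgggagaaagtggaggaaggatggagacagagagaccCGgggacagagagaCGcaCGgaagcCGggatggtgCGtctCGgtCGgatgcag
Gm33272: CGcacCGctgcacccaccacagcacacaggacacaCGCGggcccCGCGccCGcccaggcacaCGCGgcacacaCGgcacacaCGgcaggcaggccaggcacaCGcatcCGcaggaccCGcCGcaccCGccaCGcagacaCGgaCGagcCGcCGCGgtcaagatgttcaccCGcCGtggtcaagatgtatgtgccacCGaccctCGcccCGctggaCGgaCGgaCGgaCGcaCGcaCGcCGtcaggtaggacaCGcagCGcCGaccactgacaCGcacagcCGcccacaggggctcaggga

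Windows over the first 3 promoters were weak in low dose sperm, and those over the 2 Y promoters were strong in both libraries. The printed sequences hold 8 CGs for Clnk, 4 for Mrln, 7 for Ttll3, 13 for Ahnak2, 20 for Gm52481 and 39 for Gm33272. A CG was present in 94.6% of all 32851 RefSeq promoters, with a median of 7, counted on 1 strand since the motif is its own reverse complement. The Clnk window had RMS 1.83 in vehicle sperm and 0.421 in low dose sperm, a change of -1.13. At Mrln RMS was 2.25 and 0.622 in the same order, a change of -1.12, and at Ttll3 1.81 and 0.520, just past the limit. The low dose values of these windows were below the score of 1 that the deposited list required of at least 1 library. Their high dose values, 0.510, 0.611 and 0.720, were below it too. So these windows were listed through the control library alone and had to lie below control. At Ahnak2 RMS went from 0.467 to 1.78, a change of 1.05. The window over the Gm52481 promoter went from 12.1 to 25.9 with RPM of 31.6 and 74.2. That over Gm33272 went from 4.57 to 8.24, a change of 0.76 and short of the limit, with RPM of 22.5 and 46.7. The Y promoters also held more CGs than the others shown. Listed windows covered 1012 of the RefSeq promoters, or 3.08%. Of the 942 windows doing so, 4 were higher (0.425%) and 12 lower (1.27%), with a median change of -0.06. Over all windows 0.12% were higher and 1.24% lower.

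The 5 longest runs of neighbouring windows that lay on one side were upward, and all 6 upward runs of more than 3 windows lay at 3 places. These were a ribosomal DNA copy on chromosome 17, the distal X chromosome around Mid1 and Erdr1, and the distal Y chromosome around ERDR1. Background for these places is as follows. Ribosomal DNA encodes the structural RNAs of the ribosome and exists in many copies. The ends of X and Y form the pseudoautosomal region, in which the sex chromosomes pair and recombine in male meiosis. In C57BL/6 mice the boundary of this region lies within Mid1, a gene for a microtubule-associated ubiquitin ligase, and Erdr1, first described as an erythroid differentiation regulator, lies beyond it. RefSeq lists Erdr1 as a transcribed pseudogene. A stretch was 3 or more listed windows whose starts were at most 1000 bp apart, all with a change of 0.5 or more on one side, which 3.78% of all windows had upward and 12.3% downward.

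There were 15 higher stretches with 64 windows (0.0447% of all windows) and 51 lower stretches with 154 windows (0.108%). Of the higher ones, 8 were autosomal, 3 on X and 4 on Y, whereas all 51 lower ones were autosomal. The higher stretches held up to 9 windows, and 6 were longer than 3, while 50 of the lower ones had exactly 3 windows and 1 had 4. Control RPM also differed between the groups, with a median of 8.75 in windows of higher stretches and 1.58 in those of lower stretches, against 2.42 over all windows. The filter of the deposited list bore on them unequally. In the lower stretches 93 of 154 windows (60.4%) had RMS above 1 in vehicle sperm alone, and in the higher stretches 60 of 64 (93.8%) had RMS above 1 in high dose sperm too.

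The ribosomal copy overlapped Rn18s-rs5, an 18S rRNA related sequence that RefSeq lists as a pseudogene, and the annotated gene AY036118 (chromosome 17, 39843001 to 39849000). Its first 7 windows, 39843001 to 39846500, formed a stretch with a mean change of 1.12. In the second of them, 39843501 to 39844000, RPM was 10.2 in vehicle sperm, 33.5 in low dose sperm and 13.5 in high dose sperm. RMS there was 2.87, 8.56 and 3.52, a change of 1.36 in low dose sperm and 0.24 in high dose sperm. The strongest window of the locus, over AY036118 (39847501 to 39848000), had RPM 89.9 in vehicle sperm, 143 in low dose sperm and 130.0 in high dose sperm. All 12 windows of the locus were above control in low dose sperm, with changes from 0.38 to 1.36, and in all 12 the low dose library was also above the high dose library. The summed RPM of the 12 windows was 360 in vehicle sperm, 685 in low dose sperm and 538 in high dose sperm, ratios of 1.90 and 1.49 to control over 6 kb of listed windows. So the low dose library stood highest throughout this copy. The remaining 6620 windows of chromosome 17 had a median change of -0.07.

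Higher windows on the distal X chromosome began inside Mid1 and ran on over the Erdr1 region (169981501 to 170022000, annotated as Mid1 and CR536618.1). A stretch of 3 windows in a Mid1 intron (170001501 to 170003500), 2 of them past the limit, had RMS between 0.280 and 0.740 in vehicle sperm and between 1.15 and 2.50 in low dose sperm. In the CR536618.1 window at 170019001 RMS was 13.0 in vehicle sperm, 26.9 in low dose sperm and 20.6 in high dose sperm, and RPM was 20.4, 45.7 and 35.0. Of the 23 windows of this locus, 22 were above control, 16 had a change of 0.5 or more and 5 were higher. Their median change was 0.79 in low dose sperm and 0.31 in high dose sperm. Summed RPM was 207, 432 and 310 in vehicle, low dose and high dose sperm, so the low dose sum was 2.09 times that of control. Mid1 had 3 higher windows and CR536618.1 had 2, and these were the only genes with 2 or more at the limit of 1. The higher Mid1 windows at 169987001 and 170003001 had RMS above 1 in low dose sperm alone. They were listed through that library and had to lie above control, as did the window at 170001501 of the intron stretch. Other windows of the locus were listed the same way, such as that at 170021501.

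The distal Y chromosome (90718501 to 90829500) gave like values, with 54 of 58 windows above control and a median change of 0.64. Some of these windows were listed through the low dose library alone and had to lie above control. This was so for 3 of the 21 windows of ERDR1. The longest stretch of the locus, 90740501 to 90745000, had 9 windows without an annotated gene in the deposited table and a mean change of 0.97. The window at 90742001 had RPM 39.5 in vehicle sperm, 92.1 in low dose sperm and 59.4 in high dose sperm. Around the start of ERDR1 6 windows (90783501 to 90786500) had a mean change of 0.79, and 5 windows further into the gene (90792001 to 90795000) had one of 0.76. Summed RPM was 483 in vehicle sperm, 998 in low dose sperm and 711 in high dose sperm, or 2.06 and 1.47 times control. Copies on X and Y had similar levels. The window at 170009001 on X had RPM 26.4, 55.5 and 44.0 in vehicle, low dose and high dose sperm, and that at 90784001 on Y had 29.8, 66.0 and 51.4. Both chromosomes carry near-identical sequence here and may share reads, so the 2 loci are not independent. The labels and headers do not say how reads that match several places were handled, and their part in the result was not tested.

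**Figure D1:**
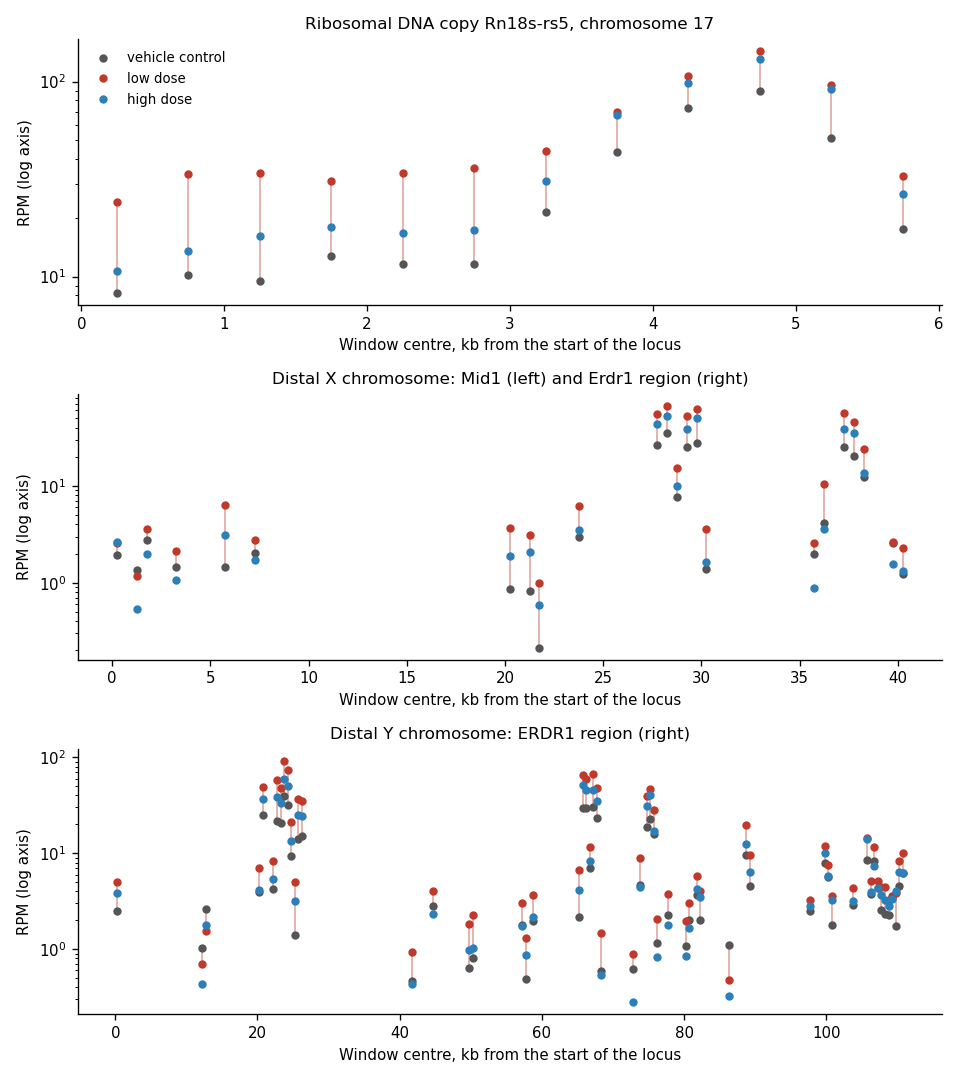
RPM on a log axis of each listed window at the 3 loci, by distance of the window centre from the start of the locus in kb, for the vehicle control (grey), low dose (red) and high dose (blue) libraries, with a line joining control and low dose. The low dose points lie above the control points in 12 of 12 windows of the ribosomal copy, 22 of 23 on distal X and 54 of 58 on distal Y.

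Most windows elsewhere on these chromosomes, and most dense windows elsewhere, had smaller changes. Outside the loci the median change was -0.03 over 1381 windows of the Y chromosome and 0.04 over 3495 windows of the X chromosome. Of the windows with a control RPM of 20 or more, 21 lay in the 3 loci and had changes from 0.38 to 1.18 with a median of 0.82. The 60 such windows elsewhere had changes from -0.91 to 0.64 with a median of 0.05, and 1 of them reached 0.5 and 1 reached -0.5. Asmt, a pseudoautosomal gene for an enzyme of melatonin synthesis 652 kb further along X, had 6 windows with changes from -0.13 to 0.34. Windows annotated to 5S ribosomal RNA, which is encoded apart from the other ribosomal RNAs, numbered 13, with changes from -0.69 to 0.52 and 9 of 13 below control. A single window annotated to 5.8S ribosomal RNA (n-R5-8s1, chromosome 18), which belongs to the main ribosomal unit, had a change of 1.43, above the largest of the loci, with RMS 0.832 in vehicle sperm and 3.54 in low dose sperm. The loci were singled out after their values were seen. Over all 9 settings tried, the locus medians ranged from 0.65 to 1.13 for the ribosomal copy, 0.56 to 0.91 for distal X and 0.43 to 0.76 for distal Y.

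Shorter higher stretches lay at genes outside these loci. At Tyw1, which encodes an enzyme that modifies tRNA, 3 windows (chromosome 5, 130269001 to 130271000) had RMS between 0.290 and 1.26 in vehicle sperm and between 1.05 and 2.42 in low dose sperm. At Atp8b4, a phospholipid-transporting ATPase gene, 3 windows on chromosome 2 (126361001 to 126362500) went from between 0.455 and 2.56 to between 1.05 and 4.45. Exons of Lmf2, a lipase maturation factor gene on chromosome 15, made up another such run with a mean change of 0.55. Without the windows of the 3 loci, an alternative added after the data were seen, 6 higher stretches were left of 15, and 158 higher windows of 172.

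Lower stretches lay in introns of transcription factor and signalling genes, among other places. The longest, with 4 windows, was intergenic (chromosome 13, 58788501 to 58791000), 15.5 kb from Ntrk2, the receptor gene for the neurotrophin BDNF. Its RMS ran from 1.16 to 2.34 in vehicle sperm, from 0.116 to 0.625 in low dose sperm and from 0.271 to 1.08 in high dose sperm. In an intron of Foxp1, a forkhead factor gene (chromosome 6, 98999501 to 99001500), 3 windows had RMS of 2.51, 1.49 and 4.41 in vehicle sperm and 0.859, 0.298 and 1.57 in low dose sperm. All 3 passed the limit, with changes from -1.15 to -1.01, and the high dose library was also below control, with a mean change of -0.99. An intron of Tcf7l2, the gene of a Wnt pathway effector (chromosome 19, 55784001 to 55785500), had RMS from 1.52 to 3.74 in vehicle sperm and no more than 1.24 in low dose sperm. Introns of Ndfip2, an adaptor of ubiquitin ligases, and of Zfhx3, a homeodomain factor gene, held stretches with a mean change of -0.87 each. Foxo3, a forkhead factor gene that acts in stress responses and spermatogonial maintenance, and Srd5a3, a gene of dolichol synthesis, held stretches of 3 windows with means of -0.87 and -0.86. Another stretch was intergenic on chromosome 17 (27373501 to 27375500). The high dose library was below control on average in all 8 of these stretches as well, with means from -1.13 to -0.60. It was compared with the same control, and the list filter partly fixes this outcome. Of the 154 windows in all lower stretches, 93 were listed through the control library alone, so their high dose values had to lie below control. With RMS above 1 required in high dose sperm, 1 lower stretch was left of 51. That filter also leaves out windows that were low at both doses, so part of this fall is built into it.

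Over the whole list, pairs of windows that touched had similar changes, and pairs farther apart had little correlation, although the loci above held like changes over longer distances. Across 46797 pairs of windows that touched, the changes correlated at r = 0.40 and 63.8% of pairs lay on the same side of 0. At 1 kb between starts r was 0.04 over 21865 pairs, at 1.5 kb 0.0092 and at 2 kb 0.00061, and at 5, 10 and 50 kb it was -0.0072, 0.04 and 0.03. Windows that touch share fragments of about 300 bp, so they are not independent measurements, and r is given as a description. Of the 172 higher windows, 59 had an adjoining window in the list. The 71 adjoining windows had a median change of 0.62, 83.1% were above control and 16 were higher themselves. Next to 429 of the 1777 lower windows lay 465 adjoining ones, with a median of -0.45, 82.8% below control and 44 lower. Over all listed windows, adjoining ones had a median of -0.02, with 47.6% above control and 52.4% below it. No window of one call adjoined one of the opposite call. Of all 93594 adjoining windows only 71 were higher and 465 lower, so opposite neighbours would be rare in any case.

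**Figure D2:**
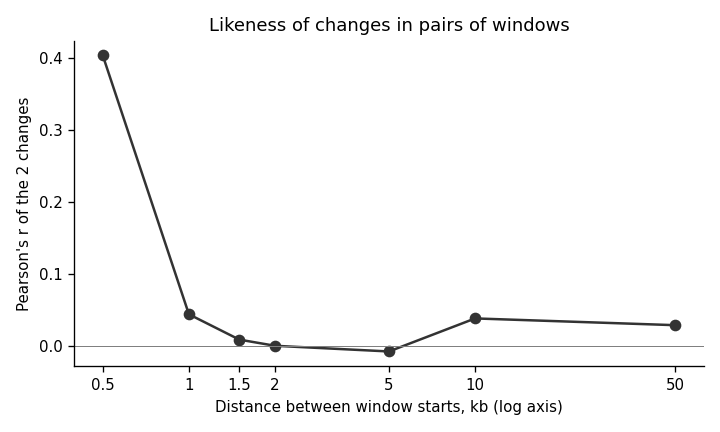
Pearson's r between the low dose changes of 2 windows, on the vertical axis, against the distance of their starts in kb on a log axis. Each point uses all listed pairs at that distance, with 0.40 for touching windows and 0.04 or less from 1 to 50 kb.

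Over the whole list, lower windows outnumbered higher ones, 1777 (1.24%) to 172 (0.12%). The median change was -0.05, with quartiles of -0.30 and 0.15, and 56.7% of windows were below control. Most of the lower windows were listed through the control library. To be listed a window needed an RMS over 1 in some library, and the control library met this in 91.0% of windows, the low dose library in 80.4% and the high dose library in 73.5%. The 20435 windows with RMS above 1 in vehicle sperm alone, 14.3% of the list, had a median change of -0.50 and held 1435 of the 1777 lower windows. By contrast 5937 windows were above 1 in low dose sperm alone, with a median of 0.33 and 80 higher windows. Among the 105312 windows above 1 in high dose sperm, a condition that neither compared library decides, the median was -0.0026 and 92 were higher (0.0874%) and 319 lower (0.303%). The high dose mice received the same drug, so this filter also leaves out windows that were low at both doses. Scaling moved the split as well, to 541 higher and 636 lower windows after quantile normalization and to 933 and 367 after the trend in RPM and the quotient of RMS and AMS, a stand-in for CpG content, was subtracted.

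**Figure D3:**
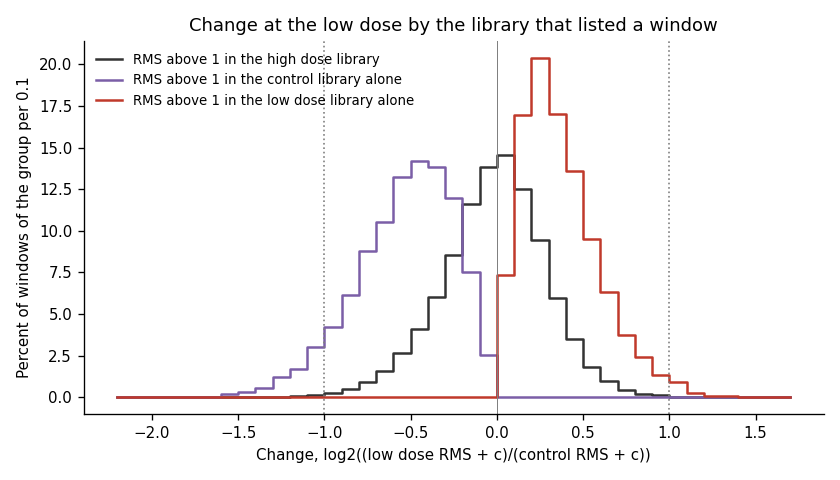
Share of windows per 0.1 of change, in percent of each group, for windows with RMS above 1 in high dose sperm (black), in vehicle sperm alone (purple) and in low dose sperm alone (red), with dotted lines at the limits of -1 and 1. The black curve is centred near 0 (median -0.0026), the purple one lies below 0 (median -0.50) and the red one above it (median 0.33).

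Signal strength and annotation went with the change. In the decile of windows with the lowest mean RPM the median change was -0.33 and 970 windows were lower (6.77%), and in the highest decile it was 0.07 with 0 lower and 11 higher windows. Introns had a median of -0.09 over 48951 windows, exons -0.06 over 38217 and intergenic windows -0.03 over 61093. Their median control RPM was in the same order, at 2.12, 2.50 and 2.70. The 105 windows with a quotient above 8, the most CpG-rich, had a median of 0.15, and 4 of them were higher. All 4 lay in the ribosomal copy on chromosome 17 described above. The X chromosome had a median of 0.04 and the autosomes one of -0.06. RPM in place of RMS called 244 windows higher (0.17%) and 1222 lower (0.853%). The calls they shared were 65.7% of the higher ones by RMS and 46.3% of those by RPM, and 51.7% and 75.2% of the lower ones.

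Along whole genes the changes were mostly small, and the genes at the 2 extremes had different kinds of windows. Of 15181 annotated gene symbols, 5157 had 5 or more windows, and their median changes had a median of -0.07 with quartiles of -0.17 and 0.02. A median of 0.5 or more was found in 4 genes (0.0776%) and one of -0.5 or less in 55 (1.07%). All windows were below control in 149 genes and above it in 33.

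The 8 genes with the lowest medians had between 5 and 15 windows each. Cdh5, the cadherin of vascular endothelium (ENSMUSG00000031871; chromosome 8), had 5 windows with a median RMS of 1.47 in vehicle sperm and 0.834 in low dose sperm, and a median change of -0.73. Ddr2, a collagen receptor kinase gene on chromosome 1, had 9 of 11 windows below control and a median of -0.73. Nf1, the RAS regulator lost in neurofibromatosis, had all 5 windows below control, with changes from -0.85 to -0.22. Cnga1, a photoreceptor channel subunit gene, also had all 5 below control and a median of -0.63. In Syt1, the calcium sensor of synaptic vesicles, 13 of 15 windows were below control (median -0.62). Xkr8, a phospholipid scramblase gene, and Esrp1, an epithelial splicing factor gene, had 5 windows each and a median of -0.62, with 4 of 5 and 3 of 5 below control. Commd10, a COMM domain gene, completed the group with 7 of 8 windows below control. Many of these windows were listed through the control library alone, which was so for 3 of 5 in Nf1, 4 of 5 in Cnga1, 8 of 15 in Syt1, 4 of 5 in Xkr8, 3 of 5 in Esrp1 and 5 of 8 in Commd10. In Cdh5 this was so for 2 of 5 and in Ddr2 for 2 of 11. Over the windows above 1 in high dose sperm the median was -0.89 in Cdh5, -0.63 in Ddr2, -0.37 in Nf1 and in Cnga1, -0.34 in Commd10 and -0.12 in Syt1. In Esrp1 the 1 window left was above control, at 0.34, and Xkr8 had none left. Over those above 1 in both compared libraries the medians of Cdh5 and Ddr2 were -0.19 and -0.10, and those of the others were the same as over the windows above 1 in high dose sperm.

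The genes with the highest medians were led by ERDR1 (ENSMUSG00000096768), in which 20 of 21 windows were above control and the median RMS went from 2.87 to 5.44, a median change of 0.70. Tcf7, which encodes the T cell factor TCF-1 of the Wnt pathway (chromosome 11), had 4 of 5 windows above control, with a median RMS of 1.47 and 2.63. All 5 of its windows had RMS above 1 in high dose sperm. Plekhg2 had a median change of 0.53 from 5 windows, 2 of them below control. Lmf2, Mns1, Aunip, Usp24 and Rnf41 followed, with medians from 0.43 (Rnf41) to 0.49 (Lmf2). Mns1 encodes a protein of the sperm flagellum, Aunip a partner of the Aurora A kinase, Usp24 a deubiquitinase and Rnf41 a ubiquitin ligase. Usp24 alone among these 8 genes had every window above control (6 of 6). Of these, 2 were listed through the low dose library alone and so had to lie above control. The 5 windows of Mns1 had low signal, with a median RMS of 0.654 in vehicle sperm and 1.08 in low dose sperm, and 4 were listed through the low dose library alone. Over the windows above 1 in high dose sperm the medians of ERDR1, Tcf7, Lmf2 and Aunip were 0.76, 0.61, 0.49 and 0.45. Those of Usp24, Rnf41 and Plekhg2 were 0.25, 0.22 and 0.19, and the 1 window left in Mns1 was at -0.43. By RPM the median of Tcf7 was 0.35.

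**Figure D4:**
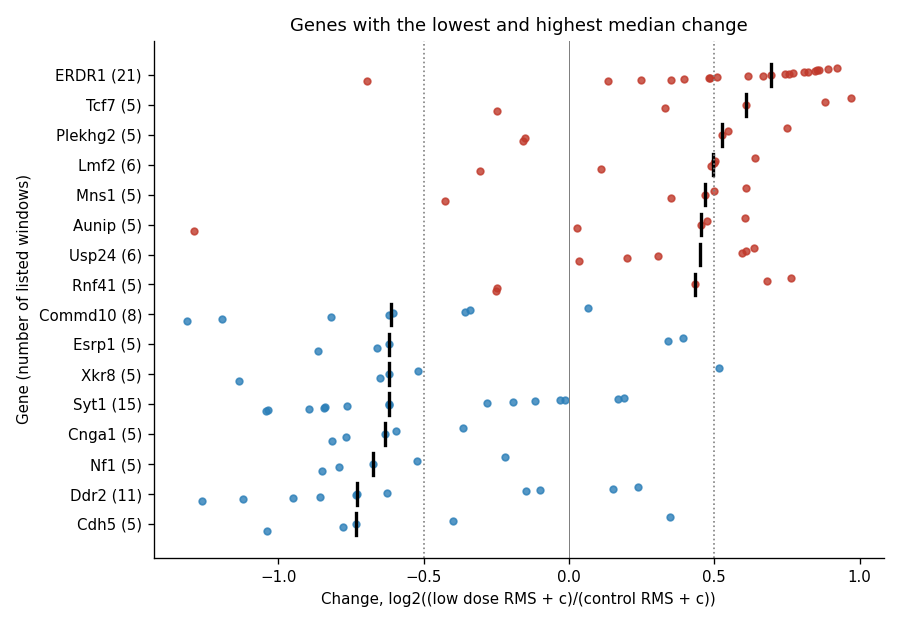
Change of every listed window (points) and median (black bar) for the 8 named genes with the lowest and the 8 with the highest median change, with the number of windows in brackets and dotted lines at -0.5 and 0.5. In ERDR1 20 of 21 windows lie above 0 and in Syt1 13 of 15 lie below it.

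Single lower windows were spread over many genes, and genes with many windows had more of them. At least 1 lower window was found in 1015 genes (6.69%), at least 1 higher window in 105 (0.692%) and both in 20. The share of genes with a lower window was 2.48% among genes with 1 to 4 windows and 69.7% among the 119 genes with 50 or more, while the share of windows that were lower was 1.27% and 1.67%. At least 2 lower windows were found in 140 genes and at least 3 in 29. Wwox, an oxidoreductase gene spanning a fragile site, had the most, 8 of 223 windows (3.59%), against 1.39% over all gene-annotated windows. The adhesion genes Cdh13 and Cdh4 had 4 of 108 and 4 of 82, and the kinase gene Mast4 had 4 of 72. Among shorter genes, Col13a1, a transmembrane collagen gene, had 3 of 21, Lamc1, a laminin chain gene, 3 of 24 and Cdk6, a kinase gene of the cell cycle, 3 of 26.

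Upstream and exon 1 windows, those nearest to annotated starts, gave 9 higher (0.144%) and 59 lower (0.941%) of 6270. The largest downward change was at an exon 1 of Hk1, a hexokinase gene with a germ cell specific isoform (ENSMUSG00000037012; chromosome 10, 62318001 to 62318500). Its RMS was 2.43 in vehicle sperm, 0.427 in low dose sperm and 0.619 in high dose sperm, a change of -1.42 in low dose sperm. RPM was 2.10 in vehicle sperm and 0.414 in low dose sperm. Sbf2, a myotubularin family gene, went from 1.96 to 0.306, and Pkd1l2, a polycystin family gene, from 1.87 to 0.347. A window at Dlg1, which encodes a synaptic and epithelial scaffold, had 1.69, 0.310 and 0.0452 in vehicle, low dose and high dose sperm. Fip1l1, of mRNA polyadenylation, and Itsn1, of endocytosis, had changes of -1.19 and -1.18. The windows of Hk1, Sbf2, Pkd1l2, Dlg1 and Fip1l1 were listed through the control library alone, so they had to lie below control. The Itsn1 window, which also lies in an annotated intron of Atp5o, was the strongest of the 6, with RMS 5.66 in vehicle sperm and 2.07 in low dose sperm.

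The largest upward change near a start was at Atm, the kinase that signals DNA double-strand breaks (ENSMUSG00000034218; chromosome 9, 53442501 to 53443000). RMS was 0.607 in vehicle sperm, 2.23 in low dose sperm and 0.561 in high dose sperm. Only the low dose value was above 1, so the window was listed through that library and had to lie above control. RPM was 0.471 and 1.73 in the control and low dose libraries. Hsd11b1, which regenerates active glucocorticoids, went from 1.17 to 3.31, with 1.87 in high dose sperm. Ap3b2, a neuronal adaptor subunit gene, went from 0.495 to 1.82 and Ttc39d from 0.583 to 1.85. An exon 1 here is that of any annotated transcript. The Atm, Ap3b2, Itsn1 and Fip1l1 windows also overlapped later exons of other transcripts, so they need not be promoters.

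Functional gene groups were described by 40 lists, beside the same values over the 82105 gene-annotated windows, where the median change was -0.08, 101 windows were higher (0.123%) and 1139 lower (1.39%). List medians ran from -0.16 (epididymal epithelium) to 0.05 (olfactory and vomeronasal receptors), and 38 of 40 were below 0. Division by library medians left 20 of 40 below 0 and subtraction of the trend 23, so the sign of these medians depends on the scaling. Of the 1777 lower windows of the whole list, 1435 were listed through the control library alone and had to lie below control. This was not split by gene list.

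**Figure D5:**
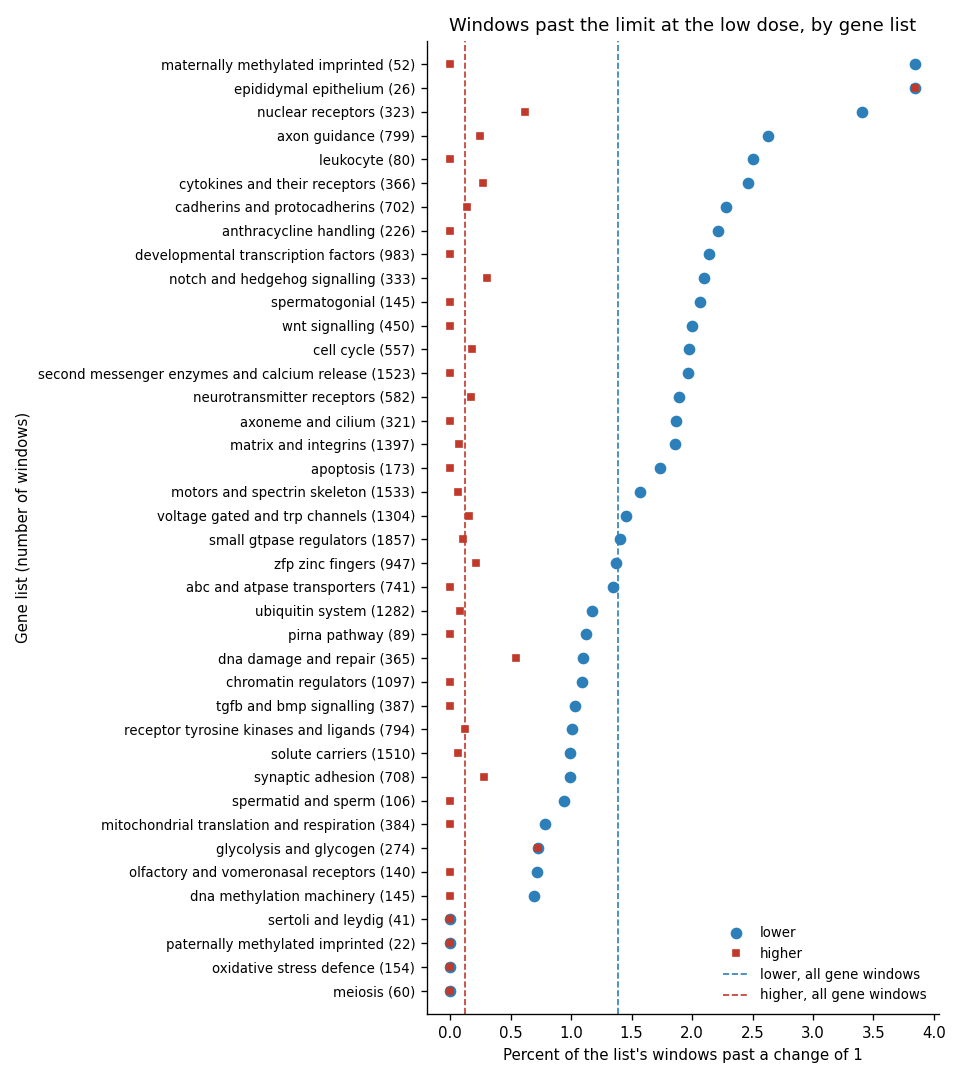
Percent of each list's windows that were lower (blue circles) or higher (red squares) at the limit of 1, with the number of windows in brackets and dashed lines for all gene-annotated windows (1.39% lower, 0.123% higher). Nuclear receptors (3.41%) and axon guidance genes (2.63%) had the highest shares of lower windows among lists with at least 100 windows.

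Imprinted genes were examined as a check of the sperm label. The 5 paternally methylated genes on the list had 22 windows, of which none passed the limit. Their highest RMS per gene ran from 2.67 (Dlk1) to 5.58 (H19) in vehicle sperm, and an exon of Rasgrf1, a RAS exchange factor gene, had RMS 4.68 and 5.79 in the control and low dose libraries. The median changes of the 5 genes lay between -0.12 (Zdbf2) and 0.14 (Dlk1). The largest change in this group was at another exon of Rasgrf1, with RMS 0.959 and 2.07, a change of 0.72. Maternally methylated genes reached the same levels in vehicle sperm, with a highest RMS of 5.34 in Igf2r and 4.16 in Gnas. These windows need not lie in the control regions, and their levels do not separate the 2 groups, so they do not settle the label. Of 24 maternally methylated genes 10 had windows, and 2 of 52 windows were lower (3.85%), 1 in Grb10, a growth inhibitor gene, and 1 in an intron of Sgce, the sarcoglycan gene beside Peg10. The Sgce window (chromosome 6, 4733501 to 4734000) had RMS 1.23 and 0.179 and was listed through the control library alone. Peg3, a zinc finger gene, had all 5 windows above control, with changes from 0.10 to 0.49, and Airn, an RNA that silences Igf2r, had 4 of 6 below it.

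Germ cell lists had shares of lower windows from 0 to 2.07%, on both sides of the background. Spermatogonial genes had 3 lower windows of 145 (2.07%), in 3 of 11 genes. One was in an intron of Zbtb16, the gene of the stem cell factor PLZF, with RMS 3.03 in vehicle sperm and 0.836 in low dose sperm. Kit, the receptor gene of differentiating spermatogonia, had an intronic window with RMS 1.62 and 3.05, short of the limit, and a lower stretch of 3 windows (chromosome 5, 75652501 to 75654500) with a mean change of -0.62 and RMS of up to 4.28 in vehicle sperm and 2.71 in low dose sperm. Of 16 meiosis genes with 60 windows none passed the limit. In the synaptonemal complex gene Sycp1 RMS was 3.19 and 4.50, and in Mei1, needed for meiotic breaks, 1.73 and 0.614. The Mei1 window was listed through the control library alone and had to lie below control. Genes of the piRNA pathway, which silences transposons, had 1 lower window of 89. In Tdrd6, a gene of the chromatoid body, one part of exon 1 went from 2.11 to 0.704 and another from 4.73 to 9.05, with changes of -0.97 and 0.84. The lower Tdrd6 window was listed through the control library alone. Spermatid and sperm genes had 1 lower window of 106. An exon of Ldhc, the testis lactate dehydrogenase, had RMS 2.52 and 0.904 and one of Akap3, of the fibrous sheath, 0.921 and 2.06, neither past the limit. Axoneme and cilium genes had 6 lower windows of 321 (1.87%), among them an exon of Ccdc39, which is needed for inner dynein arms, with RMS 3.21 and 1.05.

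Genes of other cells that a cauda preparation could hold were also listed. Leukocyte genes had 2 lower windows of 80 (2.50%), in Hcls1 and in the actin bundling gene Lcp1 (RMS 1.76 and 0.437). Epididymal epithelium genes had 1 lower and 1 higher window of 26. The lower one was in the keratin gene Krt8 (RMS 2.64 and 0.445), and the higher one in an exon of the cadherin gene Cdh1 (1.65 and 4.11). The lower windows of Hcls1, Lcp1 and Krt8 were listed through the control library alone, so they had to lie below control. Sertoli and Leydig cell genes had none of 41 past the limit. DNA methylation at a gene does not report which cells were present, and cell makeup was not measured here.

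Genes close to the action of doxorubicin had shares of lower windows both above and below the background. DNA damage and repair genes had 4 lower windows of 365 (1.10%) and 2 higher ones (0.548%). An intron of Polk, a translesion polymerase gene, had RMS 1.29 and 2.99, a change of 0.87. Ercc6, of transcription-coupled repair, had an exonic window with RMS 3.87 and 1.15 (change -1.27). Anthracycline handling genes had 5 lower windows of 226 (2.21%), in 4 genes. Intronic sequence of the solute carrier gene Slc22a4 went from 1.82 to 0.443. Exonic sequence of the efflux pump gene Abcc4 had a change of -1.05, while another exonic window of Abcc4 went from 1.69 to 3.21. Oxidative stress genes had none of 154 windows past the limit. Closest to it were windows of Txnrd3, a testis thioredoxin reductase gene, with RMS 0.756 and 2.11 (change 0.92), and of Msra, a gene that repairs oxidised methionine, with 1.75 and 0.597 (change -0.89). Apoptosis genes had 3 lower windows of 173 (1.73%). Genes of DNA methylation itself had 1 of 145, an exonic window of the maintenance enzyme gene Dnmt1. That window was listed through the control library alone and had to lie below control. A window of Dnmt3a, for a de novo enzyme, had RMS 2.06 and 3.82.

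Among lists with at least 100 windows, those with larger shares of lower windows included some lists of development and cell contact, while others lay below the background. Synaptic adhesion genes had 7 lower windows of 708 (0.989%) and TGF-beta and BMP genes 4 of 387 (1.03%), against 1.39% over gene-annotated windows. The shares are given without the filter on the high dose library, so they include windows that had to lie below control. Of the windows named below, those of Nr1d2, Esrrg, Ntn4, Dchs1, Foxo3, Glis3 and Lrp6 were listed through the control library alone. Nuclear receptors had 11 lower windows of 323 (3.41%), in 7 of 44 genes, and 2 higher ones. An intron of Nr1d2, a clock repressor gene, had RMS 1.88 and 0.386, and one of Esrrg, an orphan receptor gene, 2.41 and 0.749. Axon guidance genes had 21 of 799 (2.63%), in 15 of 72 genes, with windows of Ntn4, a netrin gene (2.35 and 0.586), and Ephb2, an ephrin receptor gene (4.05 and 1.35). Cadherins and protocadherins had 16 of 702 (2.28%), for example in the Fat4 ligand gene Dchs1, with RMS 2.01 and 0.413. Developmental transcription factors had 21 of 983 (2.14%) and 0 higher windows, with introns of Foxo3 at 2.20 and 0.473 and of Glis3, a zinc finger gene of the pancreas and kidney, at 2.41 and 0.590. Cytokine genes had 9 of 366 (2.46%), among them an intron of the oncostatin M receptor gene Osmr at 5.11 and 1.71. Lower were also 9 of 450 windows of Wnt genes, with Lrp6, a co-receptor gene, at 1.94 and 0.280. In the same lists other windows lay above control, such as a window of the retinoid receptor gene Rxra (1.86 and 3.27, a change of 0.62) and an exon of the ligand gene Wnt3a (1.11 and 2.42, a change of 0.76).

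Other lists lay near or below the background. Small GTPase regulators had 26 lower windows of 1857 (1.40%), voltage-gated and TRP channels 19 of 1304 (1.46%), Zfp zinc fingers 13 of 947 (1.37%) and solute carriers 15 of 1510 (0.993%). Mitochondrial genes had 3 of 384 (0.781%) and chromatin regulators 12 of 1097 (1.09%), among them exonic sequence of Dot1l, the H3K79 methyltransferase gene, with RMS 2.48 and 0.576. The Dot1l window was listed through the control library alone. Receptor tyrosine kinases had 8 of 794 (1.01%). An exon of Ret, the GDNF receptor gene, was at 6.23 and 2.59, and 2 windows of the growth factor receptor gene Fgfr2 went opposite ways, from 4.55 to 1.81 and from 1.20 to 2.94.

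On the scale of 1 Mb, blocks of the genome had medians near 0 apart from those at the ends of X and Y. Of 2282 blocks with 20 or more listed windows, the median block was at -0.05, with quartiles of -0.10 and 0.01. The highest were the blocks at 170 Mb of X (0.78) and at 90 Mb of Y (0.49), and the next one was at 0.22. The lowest were at 66 Mb of chromosome 9, with Dapk2, Car12, Ppib and Herc1 (-0.37, 17 of 26 windows below control), and at 34 Mb of the same chromosome, where 16 windows lay in Kirrel3, an adhesion gene (-0.35, 19 of 23 below control).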

How the data were processed

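Methylated fragments of sperm DNA were measured in 1 library per group. The table deposited by the authors gives RPM per 500 bp window, per the file headers, and 2 scores deposited by the authors, RMS and AMS, which the headers do not spell out. It holds windows with RMS above 1 in at least 1 library. The build is mm10, per the submitters' processing notes, and genes are Ensembl annotations of 2013 with 500 bp upstream and downstream, per the file headers. Neither aligner nor read filters were named in these sources.

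Repeated lines were merged to 1 per window. Changes were log2((low dose + c)/(control + c)) with c = 0.766 for RMS and 0.733 for RPM, the 10th percentile of values above 0. Python 3.11.15, numpy 2.4.6, pandas 2.3.3 and scipy 1.17.1 were used, and the calculations were tested on simulated data. With 1 library per group no test was made, and calls rest on size alone. The number of libraries limits the precision, and the depth behind a window was not stated. The deposited ratio column was not used. The members, gene lists and rules were chosen with earlier results of these data known.

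Genes named were those in the 6 longest stretches per direction, the 8 highest and 8 lowest gene medians over 5 or more windows, the 6 largest changes per direction in upstream or exon 1 windows and up to 2 windows per direction and list (larger RMS at least 1.68), imprinted genes, and genes of the 2 highest and 2 lowest blocks of 1 Mb. Other genes named (further stretches, genes with 3 or more lower windows, single lower members of lists, and the loci, defined as windows with gaps of up to 20 kb around higher stretches of 4 or more) were chosen after their values were seen. The alternatives were another pseudocount, limit, filter, scaling, measure and minimum of windows.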

Additional observations from a re-analysis of the deposited data

How the results depend on the processing

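The counts depended on the pseudocount, the filter and the scaling. Higher windows numbered 172 and lower ones 1777. With a limit of 1.5-fold they numbered 3217 and 12507, with the pseudocount divided by 3 1118 and 6981, and with it multiplied by 3 1 and 5. With RMS above 1 in both libraries they numbered 34 and 149, with RMS above 1 in the high dose library 92 and 319, after quantile normalization 541 and 636, and after subtraction of the trend 933 and 367. Division by library medians gave 274 higher and 1307 lower windows. Higher stretches numbered 15, and 30, 7, 7, 28, 24 and 28 with the smaller pseudocount, the larger pseudocount, RMS above 1 in both libraries, RPM, division by medians and quantile normalization, and 6 without the 3 loci. Lower stretches numbered 51, and 139, 1, 2, 26, 23 and 16 in the same order, 1 with RMS above 1 in the high dose library, 7 after subtraction of the trend and 26 with no absent window inside. Genes higher along their windows numbered 4, and 14, 2, 2, 11, 8 and 14 in that order, 14 after subtraction of the trend and 2 with at least 8 windows. Genes lower along their windows numbered 55, and 172, 0, 1, 33, 19 and 9 in that order, 4 with RMS above 1 in the high dose library, 3 after subtraction of the trend and 13 with at least 8 windows.

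The median change over all windows was -0.05432, and -0.06723 and -0.03473 with the smaller and larger pseudocount, -0.01188 and -0.002611 with RMS above 1 in both libraries and in the high dose library, 0.00802 by RPM, 0.02393 after division by medians, 0.005012 after quantile normalization and 0.0 after subtraction of the trend. Among named genes, the median of Esrp1 turned to 0.34 with RMS above 1 in both libraries and also in the high dose library, and that of Mns1 turned to -0.43 under the latter, each with 1 window left. Of the remaining values, for single genes, lists and windows, 1177 kept direction and side of the limit, 176 no longer passed it, 98 newly passed it and 192 moved. Fewer windows enter under the filters by construction, and for the other settings the cause was not tested. No paired analysis was possible because each group had 1 library, and no library could be left out for the same reason. Leaving out the loci was chosen after the data were seen.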
